A study of Mus musculus with 55 samples.

Results

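The glucocorticoid-responsive genes described here are 10 mouse genes, Fkbp5, Sgk1, Tsc22d3, Zbtb16, Cdkn1a, Ddit4, Sult1a1, Plin4, Mt1 and Mt2, that are commonly read as markers of glucocorticoid action in the brain. They were taken by gene symbol from the array's probe annotation, whatever their values were. Of the 10 genes, 9 had a probe set that carried their symbol alone, out of 19938 genes with such a probe set. All 9 lay above the filter on low levels and were among the 14950 genes tested. Cdkn1a, which encodes a cell cycle inhibitor, was read only by a probe set with 2 symbols, so it is named without values.

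As background, glucocorticoid hormones bind a receptor encoded by Nr3c1, which chaperones hold in the cytoplasm until hormone arrives. The receptor then enters the nucleus, binds DNA and raises the transcription of genes such as Fkbp5, whose product is a co-chaperone that lowers the receptor's affinity for hormone. The members differ in how directly they report the hormone: metallothioneins also respond to metals, and Ddit4 also responds to low oxygen and other stress.

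RNA came from the cerebellum of C57Bl/6 pups on postnatal day 22 and was read on Affymetrix Mouse Gene 1.0 ST arrays, 55 in all. Pups had received the vehicle DMSO or chlorpyrifos oxon (CPO), which the body forms from the insecticide chlorpyrifos and which inhibits cholinesterases, under the skin once a day from postnatal day 4 through 21. The doses of CPO were 0.35 and 0.5 mg per kg body weight. The genotypes were labelled Pon1+/+ (WT here), Pon1-/- (KO), tgHuPON1Q192 (Q192) and tgHuPON1R192 (R192). The transgenes carry human PON1, the paraoxonase that hydrolyses CPO, in the Q192 and R192 forms, which differ in 1 amino acid, and as background both lines are known to lack mouse Pon1. The labels do not name the promoter that drives the transgenes, nor whether each array is a separate animal. WT had 6 arrays with vehicle, 6 at 0.35 and 3 at 0.5. KO had 4, 5 and 3 in the same order, while Q192 and R192 each had 4, 5 and 5.

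The start regions of 3 members are shown because they hold the letters that the receptor or the metal sensor is known to bind. Whether these letters bear on the levels was not tested. Sequences are RefSeq promoter windows of 300 bases on build GRCm38.p6, which the gene table held for 9 of the 10 members and not for Zbtb16. Capitals mark the motif searched on both strands. For Sgk1 it is AGAACA, any 3 bases, and TGTTCT, the palindrome of 2 receptor half-sites. The stretch lies at chr10:21993675-21993734 on the plus strand, inside the annotated span of the gene and 215 to 156 bases before 1 of its 6 start sites. The tables used do not say whether it is exonic or intronic.
Sgk1: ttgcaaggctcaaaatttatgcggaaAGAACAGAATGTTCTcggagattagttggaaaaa
For Tsc22d3 the capitals mark 1 half-site, AGAACA read on the other strand, at chrX:140600678-140600737 on the minus strand, upstream of the gene.
Tsc22d3: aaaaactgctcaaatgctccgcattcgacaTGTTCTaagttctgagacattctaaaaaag
For Mt2 they mark 2 copies of the core of the metal response element, TGCACNC or TGCGCNC, at chr8:94172468-94172587 on the plus strand, upstream of the gene.
Mt2: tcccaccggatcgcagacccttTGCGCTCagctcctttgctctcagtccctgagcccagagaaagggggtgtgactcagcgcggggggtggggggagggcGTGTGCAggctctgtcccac
The full palindrome was in 3 of the 32851 windows of the table, or 0.00913%, and 1 of them was the Sgk1 window. The half-site alone was in 19.0% of windows, its inner core ACANNNTGT in 6.85% and the metal core in 25.7%, so those matches are common in windows of this length. Tsc22d3 held the half-site in 1 of its 3 windows, and Sult1a1 held it in its window. Mt1 held the inner core and the metal core, and Ddit4 and another window of Sgk1 held the metal core. The windows of Fkbp5, Plin4 and Cdkn1a held none of the 4 motifs. A match is a description of the letters and not a binding site measured here. Mt1 and Mt2 are neighbours, with 5315 bases from the end of Mt2 to the start of Mt1.

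Several arrays stood apart and are named before the results. Pon1 itself read 5.19 ± 0.24 (SD, n = 15) on the log2 scale in arrays labelled WT and 10.08 ± 0.19 (n = 12) in arrays labelled KO, against 10.10 ± 0.14 and 10.13 ± 0.11 (n = 14 each) in Q192 and R192. The value was low in WT and about equally high in the 3 genotypes that are labelled or known to lack mouse Pon1. That is the reverse of what loss of the whole transcript would give. Whether the labels or the probe set account for it was not tested. Where the probes lie relative to the deletion was not known here, so the genotypes below are those of the labels, directions included. Xist, expressed from the inactive X of females, read 11.06 to 11.33 in 3 arrays (WT at 0.35 replicates 1 and 2, KO with vehicle replicate 4) and 5.31 to 5.99 in the other 52. WT at 0.35 replicate 2 also had the lowest mean of the oligodendrocyte markers (10.45) and of the brainstem and midbrain markers (7.18). WT with vehicle replicate 4 had the lowest mean of granule neuron markers, 9.36. KO at 0.35 replicate 5 shares the number in its description with arrays labelled R192. Over the 2314 genes called between R192 and KO without it, its mean deviation toward R192 was 0.20, outside the other 11 KO arrays (-0.23 to 0.11) and inside the R192 arrays (-0.02 to 0.23), which helped to choose those genes. WT arrays ran from -0.27 to 0.23 on the same measure. The tissue label fits its markers in that Gabra6 of granule neurons and Pcp2 of Purkinje cells averaged 12.61 and 10.17, and the choroid plexus gene Ttr read 11.51 to 13.70 in all arrays. In whole tissue, fewer cells of a type and less RNA per cell cannot be told apart.

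Sgk1, a kinase induced by serum and glucocorticoids, spanned the widest range of group means, from 10.13 in WT with vehicle to 9.39 in R192 at 0.5, a ratio of 1.67. Ddit4, an inhibitor of mTORC1 signalling, spanned a ratio of 1.49 and the transcription factor gene Zbtb16 one of 1.44. Sult1a1, a phenol sulfotransferase, spanned 1.40, Fkbp5 1.34, Mt2 1.29, Mt1 1.23, Tsc22d3 1.20 and Plin4, a lipid droplet coat protein gene, 1.15. The whole range of group means was wider than the median SD within groups, 0.74 against 0.24 for Sgk1, 0.57 against 0.16 for Ddit4 and 0.30 against 0.11 for Mt1. Neighbours in the order of the 12 means lay within the larger of their 2 SDs in all 9 members, which says nothing of groups farther apart in that order. The highest group was WT with vehicle for Fkbp5, Sgk1, Zbtb16 and Ddit4.

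**Figure D1:**
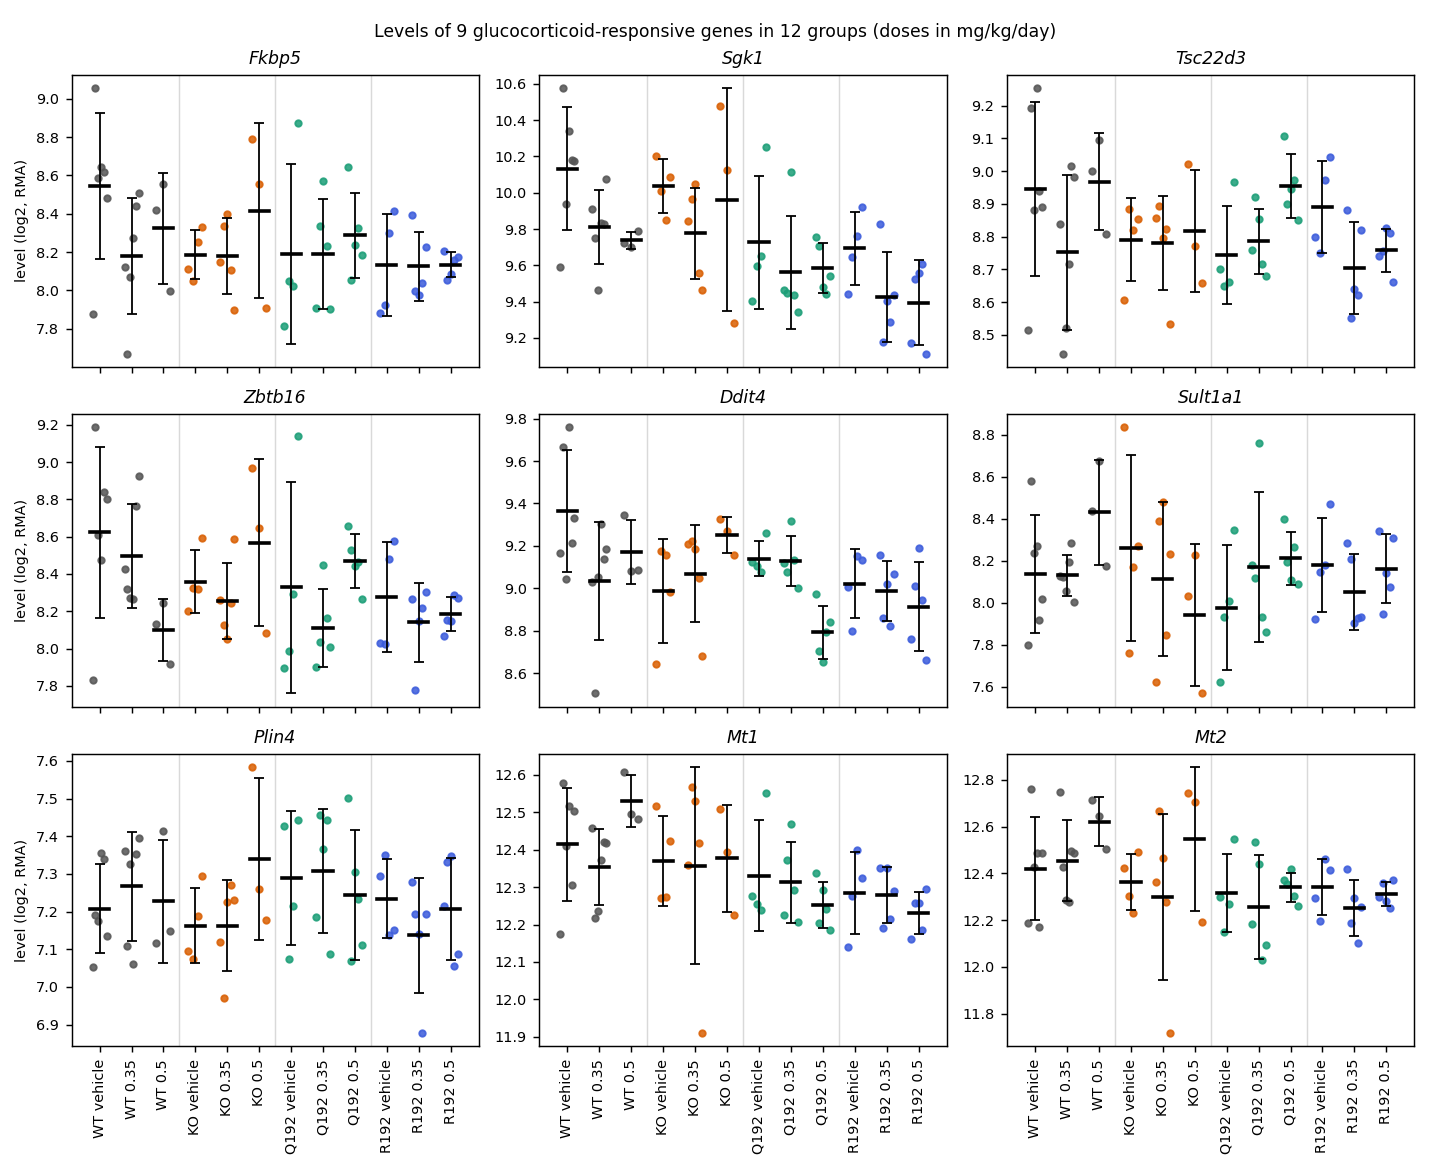
Log2 RMA level (vertical axes, a separate scale per gene) of the 9 members in the 12 groups of genotype and treatment (horizontal axis, doses in mg per kg per day). Points are arrays, bars the mean and whiskers the SD; Sgk1 is lowest in the R192 groups at 0.35 and 0.5 (means 9.43 and 9.39), and 1 array of KO at 0.35 lies far below the rest for Mt1 and Mt2.

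Of 180 pairs of a member and a comparison, 1 passed at an adjusted p under 0.05 in limma: Sgk1 was lower in R192 than in arrays labelled KO. Beside this stand the shares of all 14950 genes that passed. For CPO at 0.35 against vehicle, 0 of 9 members passed in WT, where 0.00669% of all genes did, and 0 passed in KO, Q192 and R192, where 0% of genes did. At 0.5, 0 of 9 passed in WT beside 1.04% of genes, and 0 in KO, Q192 and R192 beside 0%. On the mean of 4 genotypes 0 members and 0% of genes passed at either dose. Between genotypes, on the mean of 3 treatments, 0 members passed for KO against WT (0.375% of genes), Q192 against WT (0.455%), R192 against WT (0.87%), Q192 against KO (0.401%) and R192 against Q192 (0.0736%). In R192 against KO, 1 of 9 passed beside 5.61% of genes, a count close to the background. For the difference of the CPO effect between KO and WT, 0 members passed at 0.35 (0.00669% of genes) and 0 at 0.5 (9.2%), and for that between R192 and Q192 0 passed at 0.35 and at 0.5, with 0% of genes each time. Across all genotypes, a moderated F test called Sgk1 alone among the 9 (adjusted p = 0.0313, 2.3% of genes), and the F test over all CPO contrasts called 0 members and 0% of genes.

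A looser count, at an unadjusted p under 0.05, held 21 of the 180 pairs. It took in 2 of 9 members for CPO at 0.35 in WT, where 20.3% of all genes were at that level, and 1 of 9 at 0.5 in WT, beside 21.9%. It took in 4 of 9 members for Q192 against WT, beside 4.70% of genes, and 4 of 9 for R192 against WT, beside 12.9%. These were Sgk1, Ddit4, Mt1 and Mt2 both times, and both comparisons share the WT arrays. The 4 genes also varied together inside groups (r from 0.41 to 0.87), so they are not 4 separate results. The number correlations of all 4, Sgk1 (0.81), Mt2 (0.54), Ddit4 (0.32) and Mt1 (0.26), exceeded the 0.13 of the fit. Their unadjusted p may therefore be too small. For the KO minus WT difference at 0.5 the count was 3 of 9, beside 31.7% of genes. All 9 members were lower in R192 than in WT by value, with a median log2 difference of -0.19 against -0.01 for all genes.

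**Figure D2:**
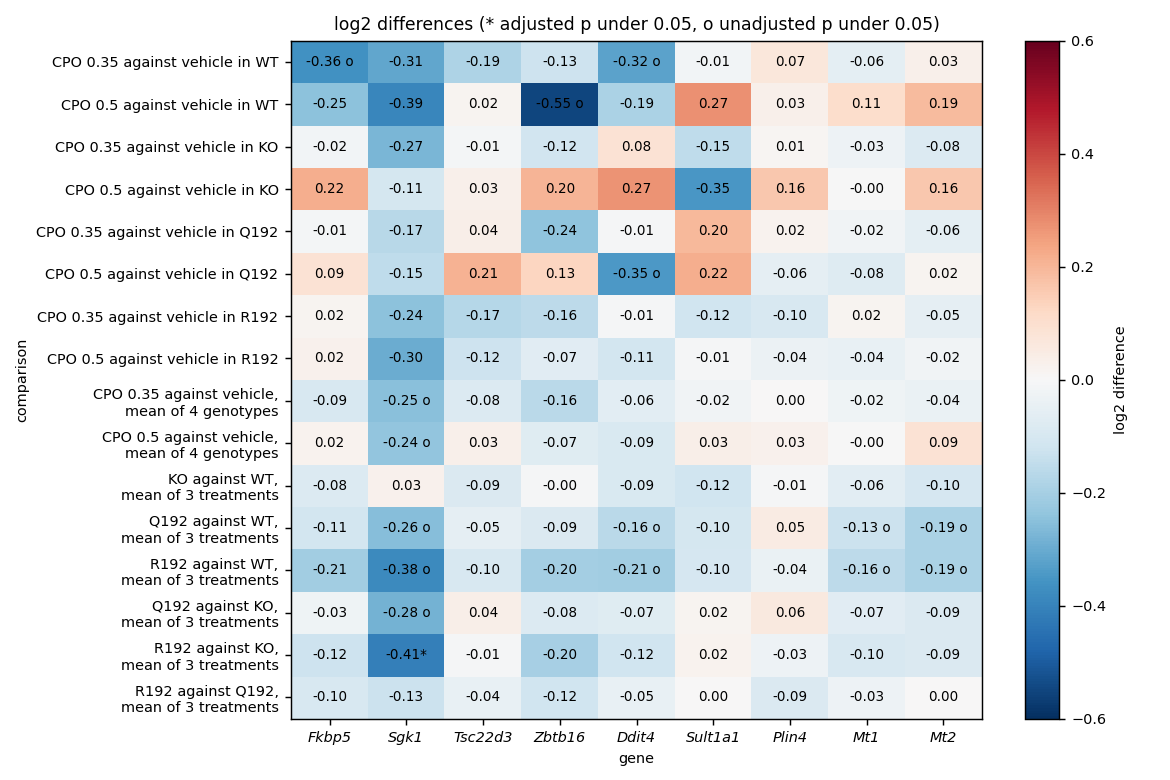
Log2 differences of the 9 members (columns) in 16 comparisons (rows), each the first named group minus the second, coloured from -0.6 (blue) to 0.6 (red). A star marks the 1 pair past an adjusted p of 0.05, Sgk1 in R192 against KO at -0.41, and a circle an unadjusted p under 0.05; the Sgk1 column is negative in all 8 contrasts of a dose with its own vehicle.

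Sgk1 was the member with a called difference. In R192 it read 9.44, 9.65, 9.76 and 9.92 with vehicle. At 0.35 the R192 arrays read 9.83, 9.18, 9.41, 9.29 and 9.44, and at 0.5 they read 9.17, 9.52, 9.56, 9.61 and 9.11. These 14 arrays averaged 9.49 ± 0.25 (SD).
Arrays labelled KO read 10.20, 10.01, 9.85 and 10.09 with vehicle. At 0.35 they read 9.84, 9.96, 10.05, 9.56 and 9.47, and at 0.5 they read 10.48, 10.13 and 9.28. Their mean was 9.91 ± 0.34 (SD, n = 12). The 2 sets overlap, since the lowest KO array lay below most R192 arrays, but 13 of 14 R192 arrays lay below the KO mean. The fitted log2 difference was -0.41 (SE 0.11, 95% interval -0.63 to -0.19, adjusted p = 0.0177), a ratio of 0.752. By treatment the raw difference of means was -0.34 with vehicle, -0.35 at 0.35 and -0.57 at 0.5, and the groups overlapped in each.

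The call did not hold everywhere. Within the arrays of 1 date the difference was -0.53 (adjusted p = 0.152) and within the other -0.18 (adjusted p = 0.447). Without KO at 0.5 replicate 1, the highest KO array, it was -0.33 (adjusted p = 0.0540), and without KO at 0.35 replicate 5 it was -0.44 (adjusted p = 0.0055). Sgk1 was far more alike in arrays that share a description number than most genes, as given below, and with 1 mean for each group and number the difference was -0.39 (adjusted p = 0.122). With Sgk1's own number correlation of 0.81 in place of the shared one, for all genes, it was -0.36 (adjusted p = 0.999). That adjusted p also depends on the other genes, whose median number correlation was 0.14, so it does not measure Sgk1 alone.

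Against WT, Sgk1 in R192 differed by -0.38 (SE 0.11, adjusted p = 0.0641), which missed the threshold. WT arrays read 9.59, 10.18 and 10.57 as lowest, median and highest with vehicle, and 9.47, 9.83 and 10.07 at 0.35. At 0.5 they read 9.72, 9.70 and 9.79. None of the 14 R192 arrays lay above the WT mean of 9.93. Q192 read 9.40, 9.60, 9.65 and 10.25 with vehicle. It read 9.46, 9.45, 10.11, 9.44 and 9.35 at 0.35, and 9.76, 9.71, 9.48, 9.44 and 9.54 at 0.5. Only 2 of the 14 Q192 arrays lay above the WT mean, and the Q192 minus WT difference was -0.26 (SE 0.11, adjusted p = 0.911). R192 minus Q192 was -0.13 (95% interval -0.34 to 0.08), and Q192 minus KO was -0.28 (95% interval -0.50 to -0.07, adjusted p = 0.365). No step between neighbours in the order WT, KO, Q192, R192 of the raw means 9.93, 9.91, 9.62 and 9.49 passed the test. In the fit, KO minus WT was 0.03, the opposite sign to the raw means.

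Sgk1 was also lower by value at both doses of CPO in each genotype, from -0.11 at 0.5 in KO to -0.39 at 0.5 in WT, but none of these 8 contrasts passed (adjusted p from 0.234 to 1). The 18 vehicle arrays averaged 9.92 ± 0.33, the 21 arrays at 0.35 averaged 9.65 ± 0.28 and the 16 at 0.5 averaged 9.63 ± 0.34. On the mean of 4 genotypes the difference was -0.25 at 0.35 (95% interval -0.43 to -0.07, adjusted p = 0.9999) and -0.24 at 0.5 (-0.43 to -0.04, adjusted p = 0.991). In order of p, Sgk1 stood at place 28 of 14950 at 0.35 and place 259 at 0.5. At 0.5 the value rested on 1 array date: it was -0.02 in the arrays of date 1 and -0.53 in those of date 2. It was -0.13 without KO at 0.5 replicate 3.

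Among the direct receptor targets, Fkbp5 read 7.88, 8.60 and 9.06 (lowest, median, highest of 6) in WT with vehicle and 7.67, 8.20 and 8.51 in WT at 0.35. Its difference there was -0.36 (SE 0.17, adjusted p = 0.209). All 6 treated arrays lay below the vehicle mean of 8.54, though 1 vehicle array was as low as the treated ones. Without that vehicle array, replicate 1, the difference was -0.51 (adjusted p = 0.0526), and without the arrays of high Xist it was -0.22 (adjusted p = 0.906). In the other 3 genotypes and at 0.5, Fkbp5 differed by -0.25 to 0.22 with no call.

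Zbtb16, a zinc finger transcription factor, read 8.13, 8.24 and 7.92 in the 3 WT arrays at 0.5. In WT with vehicle it read 7.83, 8.70 and 9.19 as lowest, median and highest, so 1 vehicle array lay below all treated ones and 5 lay above them. The difference was -0.55 (SE 0.20, adjusted p = 0.112), or -0.71 without that low vehicle array (adjusted p = 0.0779). The 3 WT arrays at 0.5 carry 2 description numbers, as do the 3 KO arrays at 0.5. Zbtb16's own number correlation was 0.89 against 0.13 in the fit, so its SE and intervals may be too narrow. With arrays weighted by quality the difference was -0.83 and passed (adjusted p = 0.0024), as did 2515 of 14950 genes under those weights. In KO at 0.5 Zbtb16 read 8.97, 8.65 and 8.08 against 8.20, 8.32, 8.32 and 8.60 with vehicle, and the effect of the dose differed between KO and WT by 0.76 (95% interval 0.15 to 1.36, adjusted p = 0.0836). That difference was 0.95 in the arrays of date 1 and 0.25 in those of date 2. With quality weights it was 1.27 and passed (adjusted p = 0.0089), as did 1416 of 14950 genes. Tsc22d3, which encodes the leucine zipper protein GILZ, had differences from -0.19 to 0.21 over the 8 dose contrasts, with no call. Its lowest unadjusted p was for the dose effect at 0.5 in R192 minus that in Q192, at -0.33 (95% interval -0.65 to -0.01, adjusted p = 0.672).

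Ddit4 had its lowest group mean in Q192 at 0.5, where its arrays read 8.97, 8.71, 8.65, 8.79 and 8.84. The vehicle arrays read 9.12, 9.10, 9.07 and 9.26, so the groups did not overlap. The difference was -0.35 (SE 0.14, adjusted p = 0.333). In WT, Ddit4 read 9.05, 9.27 and 9.76 with vehicle and 8.50, 9.10 and 9.31 at 0.35 (lowest, median, highest), a difference of -0.32 (SE 0.12, adjusted p = 0.139). It was -0.37 without WT at 0.35 replicate 4, where it passed (adjusted p = 0.0457), -0.21 without replicate 2 and -0.19 without the arrays of high Xist. It was -0.17 in the arrays of date 1 and -0.51 in those of date 2, where it passed (adjusted p = 0.0416). In arrays labelled KO, Ddit4 at 0.5 was higher by value than with vehicle (9.33, 9.27 and 9.16 against 8.64, 9.17, 9.15 and 8.98). The dose effect in KO minus that in WT was 0.40 at 0.35 (adjusted p = 0.155) and 0.46 at 0.5 (adjusted p = 0.129). Without KO at 0.35 replicate 5 the former was 0.51 and passed (adjusted p = 0.0445). That was the only pass in 39 settings, over which it ran from 0.17 to 0.59.

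Sult1a1 read 8.03, 8.23 and 7.57 in KO at 0.5 against 8.83, 7.76, 8.17 and 8.27 with vehicle, and 8.44, 8.68 and 8.18 in WT at 0.5. The effect of 0.5 differed between KO and WT by -0.62 (95% interval -1.19 to -0.05, adjusted p = 0.128), the opposite sign to Zbtb16 and Ddit4. Without KO with vehicle replicate 2 it was -0.78 and passed (adjusted p = 0.0445). This was the only pass in 34 settings, over which the difference ran from -1.01 to -0.28. In the fit of all arrays 9.2% of all genes passed for that difference. The 8 dose contrasts of Plin4 ran from -0.10 to 0.16 and its 6 genotype contrasts from -0.09 to 0.06, with no call.

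Mt1 and Mt2, the small metal-binding proteins, gave their highest group means in WT at 0.5, 12.53 ± 0.07 and 12.62 ± 0.11 (SD, n = 3). Over 3 treatments Mt1 averaged 12.41 ± 0.13 in WT, 12.37 ± 0.18 in KO, 12.30 ± 0.11 in Q192 and 12.26 ± 0.08 in R192. The R192 minus WT difference was -0.16 for Mt1 (SE 0.05, adjusted p = 0.148) and -0.19 for Mt2 (SE 0.07, adjusted p = 0.260). None of the 14 R192 arrays lay above the WT mean for either gene, but WT arrays reached down to 12.17 in both, inside the R192 range. KO at 0.35 replicate 5 was the lowest of all 55 arrays for both, at 11.91 and 11.72, against 12.36 to 12.57 and 12.28 to 12.67 in the other 4 arrays of its group.

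The members varied together from array to array inside groups. After group and date means were removed, all 36 pairs of members had a positive Pearson correlation over the 55 arrays, from 0.09 to 0.87 with a median of 0.52. Of these, 29 passed an adjusted p of 0.05 with 100000 permutations of arrays within groups by Pearson's r, and 31 did by Spearman's rho. Across all genes, the median r with a member ran from -0.05 (Sult1a1) to 0.04 (Plin4). The share of all genes with an r above 0.5 ran from 0.261% (Sgk1) to 10.7% (Ddit4). Arrays that share a description number are not fully independent, so each r was also taken over the 37 means of group and number. The permutations moved single arrays whatever their number, so all permutation p given here may be too small. No p was taken over the 37 means.

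Fkbp5, Sgk1, Tsc22d3 and Zbtb16 followed each other with r from 0.63 to 0.81. Fkbp5 and Tsc22d3 had r = 0.81 and rho = 0.77 (adjusted permutation p = 3.6e-05 for r, the smallest reached). Fkbp5 and Zbtb16 had r = 0.78 and rho = 0.66, and Fkbp5 and Sgk1 r = 0.75 and rho = 0.64, both with the same adjusted permutation p. Over the 6 pairs of these 4 genes, r was 0.55 to 0.78 without the 2 arrays farthest from the median, 0.56 to 0.82 within either array date, and 0.71 to 0.86 over the means of group and number.

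**Figure D3:**
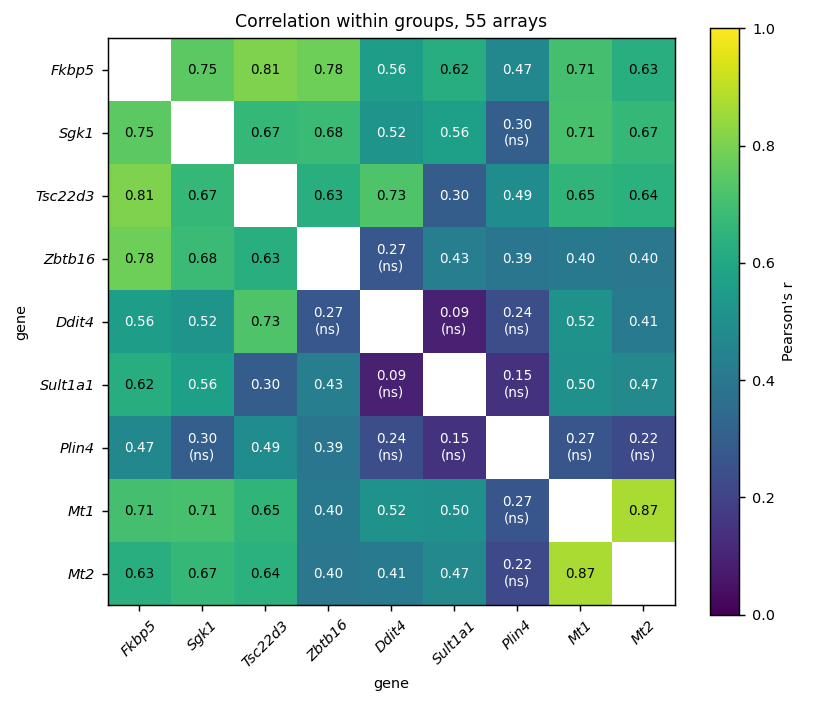
Pearson's r (colour and numbers) between the 9 members over 55 arrays, after removing group and array date means. Pairs whose adjusted permutation p was 0.05 or more carry (ns); r reaches 0.87 for Mt1 with Mt2 and stays lowest for Ddit4 with Sult1a1 at 0.09.

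Mt1 and Mt2 had r = 0.87 and rho = 0.86 with each other, and r = 0.82 without the 2 arrays farthest from the median, 1 of which was KO at 0.35 replicate 5. Mt1 also followed Sgk1 (r = 0.71, rho = 0.69) and Fkbp5 (r = 0.71, rho = 0.68). Ddit4 followed Tsc22d3 (r = 0.73, rho = 0.71) but not Sult1a1 (r = 0.09, adjusted permutation p = 0.562) or Plin4 (r = 0.24, adjusted permutation p = 0.101). Plin4 passed with 3 of the 8 other members, Ddit4 with 5 and Sult1a1 with 6, while Fkbp5 and Tsc22d3 passed with all 8.

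**Figure D4:**
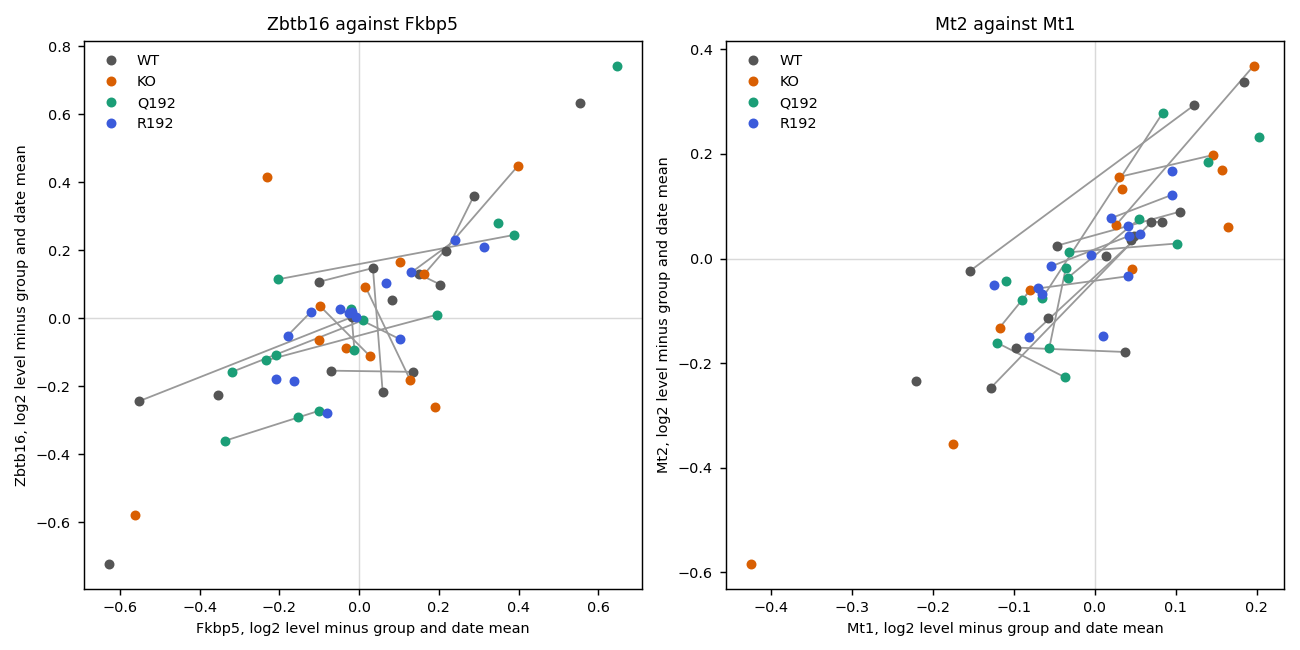
Level minus group and date mean (log2) of Zbtb16 against Fkbp5 (left) and of Mt2 against Mt1 (right), 1 point per array coloured by genotype. Grey lines join arrays of a group that share a description number; the points run along the diagonal in both panels (r = 0.78 and 0.87), and the orange point at the lower left of the right panel is KO at 0.35 replicate 5.

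Both ends of this shared variation held vehicle arrays. WT with vehicle replicate 2 had residuals of 0.55 for Fkbp5, 0.46 for Sgk1 and 0.63 for Zbtb16, while replicate 1 of the same group had -0.63, -0.53 and -0.72. Q192 with vehicle replicate 4 had 0.65, 0.51 and 0.74. KO at 0.5 replicate 3 was low, at -0.56, -0.71 and -0.58. KO at 0.35 replicate 5 broke the pattern, with -0.23 for Fkbp5 and 0.42 for Zbtb16.

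The same members had a wide spread for genes of these arrays. The SD of residuals was 0.29 for Fkbp5 and Zbtb16, 0.28 for Sgk1 and 0.27 for Sult1a1, above that of 97.1%, 97.3%, 96.7% and 96.2% of all genes tested. It was 0.20 for Ddit4, 0.19 for Mt2, 0.17 for Tsc22d3, 0.15 for Plin4 and 0.13 for Mt1, against a median of 0.13 for all genes.

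Much of that spread lay between description numbers. The labels do not say what the number before the point in an array's description stands for; 17 numbers were shared by more than 1 array, covering 36 arrays. The correlation of arrays with the same number was 0.89 for Zbtb16, 0.81 for Sgk1 and 0.65 for Fkbp5, against a median of 0.14 over all genes and 0.13 in the fit. It was 0.54 for Mt2, 0.52 for Sult1a1, 0.50 for Tsc22d3, 0.32 for Ddit4 and 0.26 for Mt1, and Plin4 stood below 0 at -0.33. Expressed as differences between 2 arrays of a group, Zbtb16 had a median of 0.13 within a number (19 pairs) and 0.28 across numbers (85 pairs). Tsc22d3 had 0.06 and 0.18, Mt2 0.07 and 0.17, Fkbp5 0.14 and 0.25 and Sgk1 0.16 and 0.28. For all genes the medians were 0.12 both ways, and for Plin4 they ran the other way, 0.22 and 0.14. These are descriptions with no test.

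**Figure D5:**
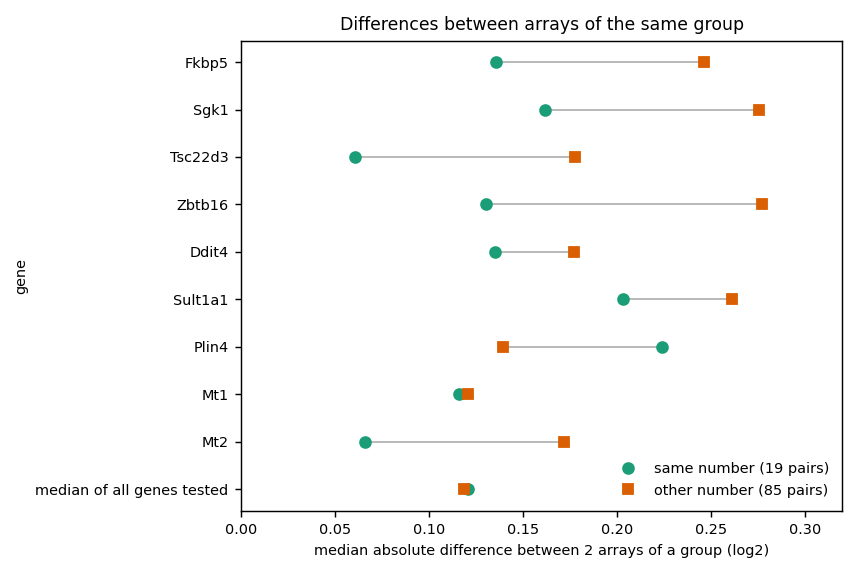
Median absolute log2 difference (horizontal axis) between 2 arrays of the same group for each member, for 19 pairs that share a description number (circles) and 85 pairs that do not (squares). Circles lie left of squares for 8 of the 9 members, narrowly for Mt1, and right of them for Plin4, while the median over all genes is 0.12 for both.

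The genes whose residuals were most like those of a member were, by rule, the 3 with the highest r over the 55 arrays. Mertk, a receptor tyrosine kinase that clears dying cells, came first for Zbtb16 (r = 0.86) and Sgk1 (r = 0.78) and second for Fkbp5 (r = 0.79). Adipor2, an adiponectin receptor, came first for Tsc22d3 (r = 0.84) and was the third for Fkbp5 (r = 0.78). Pdk4, a kinase that inhibits pyruvate dehydrogenase, took the third place for Sgk1 (r = 0.74), and Edn1, the endothelin peptide gene, that for Zbtb16 (r = 0.76). Fam83d came second for Tsc22d3 (r = 0.82).
Ddit4 was most like Tns3 (r = 0.83), the glucose transporter gene Slc2a1 (r = 0.81) and Lrrc8a (r = 0.79), Sult1a1 most like Phyhd1 (r = 0.80), Etnppl and Cyria (r = 0.77 each). Plin4 was most like Pax8 (r = 0.68), Crybb2 (r = 0.66) and Cxcl1 (r = 0.64). Beside each other, Mt1 was most like Prodh and Itih5 (r = 0.73 each), and Mt2 most like Txnip (r = 0.73) and Herpud1 (r = 0.71). An r above 0.5 was reached by 39 genes with Sgk1, 59 with Zbtb16 and 121 with Fkbp5, but by 519 with Tsc22d3 and 1598 with Ddit4.

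A list of 30 other glucocorticoid-induced genes, 29 of them tested, was set beside the members. The mean of the list followed Ddit4 (r = 0.83, rho = 0.83), Tsc22d3 (r = 0.74, rho = 0.77), Mt1 (r = 0.64), Mt2 and Fkbp5 (r = 0.58 each) and Sgk1 (r = 0.54), all past an adjusted permutation p of 0.05. It did not pass with Zbtb16 (r = 0.31, adjusted permutation p = 0.128), Plin4 (r = 0.27, adjusted permutation p = 0.192) or Sult1a1 (r = -0.02, adjusted permutation p = 0.965). Gene by gene, 5 of the 29 had an r above 0.5 with Zbtb16, beside 0.395% of all genes. The counts were 2 with Plin4, beside 1.28%, and 3 with Sult1a1, beside 2.87%. Mertk and Pdk4, named above as most like members, belong to this list. Nfkbia, the inhibitor of NF-kB, was the single gene of those followed throughout that passed most often: with Sgk1 (r = 0.72), Zbtb16 (r = 0.63), Fkbp5 (r = 0.57), Tsc22d3 (r = 0.56), Ddit4 (r = 0.45) and Mt1 (r = 0.42). Nr3c1, the receptor gene, went against Ddit4 (r = -0.47) and Fkbp5 (r = -0.44). Its group means spanned only 10.04 (WT with vehicle) to 10.24 (R192 with vehicle). Those of Nr3c2, the mineralocorticoid receptor gene, ran from 7.83 to 8.28, and those of Hsd11b1, whose enzyme regenerates active hormone, from 8.51 to 8.91.

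In R192 against arrays labelled KO, 25 of the 29 genes of this list were lower by value, with a median of -0.12 beside 0.01 for all genes. Of the 29, 3 passed, beside 5.61% of all genes. Bcl6, a transcriptional repressor, differed by -0.38 (adjusted p = 0.0308), the clock gene Per1 by -0.30 (adjusted p = 0.0450) and Klf9, a zinc finger factor, by -0.17 (adjusted p = 0.0495). In R192 against WT, 2 of 29 passed beside 0.87% of all genes, both lower: Dusp1, a MAP kinase phosphatase, by -0.53 (adjusted p = 0.0278) and Nfkbia by -0.21 (adjusted p = 0.0147). Pdk4 was higher in KO than in WT by 0.54 (adjusted p = 0.00211), while Sgk1, whose residuals it follows, differed by 0.03 there. Errfi1, a feedback inhibitor of EGF receptor signalling, was lower at 0.5 in WT, with a log2 difference of -0.40 (adjusted p = 0.0323) and no overlap of the groups.
The effect of 0.5 differed between KO and WT for 4 of the 29 genes, all more positive in KO, while 9.2% of all genes passed: Foxo3 by 0.82, Gpd1 by 0.73, Klf9 by 0.55 and Errfi1 by 0.48 (adjusted p from 0.0370 to 0.0442). No member passed there.

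Among 13 tested genes for the receptor and the handling of its hormone, 1 passed in any comparison. It was Abcb1a, the drug efflux pump of the blood-brain barrier, which was higher in R192 than in KO by 0.22 (adjusted p = 0.0434). Of 5 metal response genes, the zinc importer gene Slc39a10 was higher in R192 than in KO by 0.17 (adjusted p = 0.0237). Of 10 p53 targets and 10 genes of the integrated stress response, 0 passed in any comparison.

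Markers of other cell types moved in the R192 against KO comparison too. Endothelial markers (3 of 11 higher, Abcb1a among them), microglial markers (3 of 11) and markers of astrocytes and Bergmann glia (2 of 12) included called rises, and 2 of 10 Purkinje cell markers were called lower, beside 5.61% of all genes called in either direction. The mean of the microglial list was 7.83 to 8.27 in KO and 8.11 to 8.54 in R192, that of the endothelial list 8.17 to 8.60 and 8.40 to 8.64, that of the glial list 10.48 to 10.97 and 10.69 to 10.94, and that of the Purkinje list 10.56 to 11.35 and 10.41 to 10.91. By value, all 12 granule neuron markers were lower in R192 (median -0.15) and all 12 brainstem and midbrain markers higher (median 0.18), with 0 called in either list. Inside groups, the r of Sgk1 was 0.02 with the endothelial list, 0.11 with the microglial, -0.12 with the glial and -0.07 with the Purkinje list. With the mean of brainstem and midbrain markers as a covariate, the Sgk1 difference was -0.45 (adjusted p = 0.0104). The part of the endothelial, microglial, glial and Purkinje lists in the difference between R192 and KO was not tested. Tsc22d3 and Ddit4 did follow cell type lists: with oligodendrocyte markers r was 0.58 and 0.63, with microglial markers 0.54 and 0.46, and with brainstem and midbrain markers 0.52 and 0.44. Without the 2 arrays farthest from the median, WT at 0.35 replicate 2 and a WT vehicle array, r fell to 0.45 and 0.48, to 0.40 and 0.28, and to 0.34 and 0.28. The part of these lists in the levels of Tsc22d3 and Ddit4 was not tested.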

How the data were processed

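RNA of 55 mouse cerebellum arrays in 12 groups was analysed from the deposited table. Its values were taken as log2 levels that the authors made with Affymetrix Expression Console 1.1 and RMA, per the submitters' processing notes, and array medians lay between 7.37 and 7.54. No further normalisation was applied. Probe sets with 1 symbol were used (21789 of 35557; 1621 had several symbols and 12147 had none), the one of highest mean per gene, above the 25th percentile of level (6.44), without 3 sex-linked genes. The annotation was updated through RefSeq identifiers, which changed 0 symbols.

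limma 3.58.1 in R 4.3.3 fitted a mean per group with array date (2 dates) as covariate and the description number as a random block (correlation 0.131), with a variance trend and 42 residual degrees of freedom. Two-sided p-values received the Benjamini-Hochberg correction over all genes, separately in each of 20 comparisons and 2 F tests. They measure only the spread between these arrays, whose number limits the precision. The search for repeated arrays among 104 pairs within groups found none identical (smallest root mean square difference 0.240). The members, lists and tests were chosen with earlier results of these data known, so no count here is independent support for a pattern seen before. Correlations used residuals from group and date with 100000 permutations within groups, adjusted within their family (36 member pairs, 144 pairs of a member and a list, 54 pairs of a member and a gene). All 10 members were to be named, statistics being given for pairs at an unadjusted p under 0.05, with genes of other lists that passed, 6 fixed genes (Nr3c1, Nr3c2, Hsd11b1, Per1, Klf9, Nfkbia) and the 3 most alike per member. Alternatives changed scaling, filters, covariates, blocks, weights and arrays. Scripts were tested on simulated data, for the fit with independent noise and no block on the description number. That simulation did not check how shared numbers were handled. Figures were drawn in Python 3.11.15 with matplotlib 3.10.9.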

Additional observations from a re-analysis of the deposited data

Results flagged for a closer look

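In 5 of 90 groups of 4 to 10 arrays, counted over the 9 members, 1 array lay far from the others, and chance flags about 1 in 20 such groups. Sgk1 read 10.11 in Q192 at 0.35 replicate 3, with 9.46 as the nearest of the 5 arrays. Tsc22d3 read 8.53 in KO at 0.35 replicate 5 (nearest 8.80) and 8.97 in Q192 with vehicle replicate 4 (nearest 8.70). Mt1 read 12.55 in that same Q192 array, the nearest being 12.28. Ddit4 read 8.50 in WT at 0.35 replicate 2, 1 of the 3 arrays with a high Xist level, the nearest being 9.03.

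For Ddit4 and Sult1a1, every array at CPO 0.5 moved one way from its vehicle mean in KO and the other way in Q192, and this difference was not tested. For Ddit4 all 3 KO arrays lay above their vehicle mean and all 5 Q192 arrays below theirs, so the effects, 0.26 and -0.35, differed by 0.61. For Sult1a1 the effects were -0.32 and 0.23, a difference of -0.55. Between KO and WT the effect of 0.5 differed for 4 genes of the list of other glucocorticoid-induced genes by limma's interaction test: Klf9 by 0.55 (SE 0.15, adjusted p = 0.0370), Errfi1 by 0.48 (SE 0.13, adjusted p = 0.0375), Gpd1 by 0.73 (SE 0.23, adjusted p = 0.0442) and Foxo3 by 0.82 (SE 0.26, adjusted p = 0.0440). These stand beside 9.2% of all genes called in that comparison.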

How the results depend on the processing

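Of 1752 values recomputed under other settings, 1688 kept their direction and call. They were counts of members called, which have no sign, and differences of the 21 pairs at an unadjusted p under 0.05. Of those differences 0 changed sign. All but 1 of the 21 pairs were uncalled to begin with, so a kept call mostly meant that a pair stayed uncalled. The call of Sgk1 in R192 against KO, and with it the F test across genotypes, was the result most often lost: the number of members called went to 0 for both in the arrays of date 1 alone, in those of date 2 alone, with Sgk1's own number correlation for all genes and with 1 mean for each group and number. The last 2 settings, and those that leave out arrays of high Xist, were chosen after seeing the data, and the cause of each change was not tested beyond the smaller number of arrays within a date. Over all alternatives the Sgk1 difference ran from -0.55 to -0.18 and its adjusted p from 0.00129 to 0.999. Without KO at 0.35 replicate 5 and the arrays of high Xist, 2 members were called in R192 against KO and 3 by the F test. The share of all genes called in that setting is not given here, so these counts have no background beside them. Without KO at 0.35 replicate 5 alone, 2314 genes were called in R192 against KO, against 839 in the fit of all arrays.

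Array quality weights gave more calls over all 14950 genes as well as among members: 1 member and 2515 genes for CPO at 0.5 in WT, 1 and 629 in Q192, 4 and 1383 for R192 against WT, 1 and 1495 for Q192 against KO, 3 and 5401 for R192 against KO, 2 and 1416 for the KO minus WT difference at 0.5, 4 and 4388 in the genotype F test, and 2 and 1758 in that over CPO contrasts. For R192 against WT, 1 member was called with no block on the description number, with brainstem and midbrain markers as a covariate and with only the groups compared in the fit. In the arrays of date 2 alone, 1 member was called for CPO at 0.35 in WT. When each array was left out in turn, the count ran from 0 to 2 for R192 against KO and for the genotype F test. It ran from 0 to 1 for R192 against WT, for CPO at 0.35 in WT and for the KO minus WT differences at 0.35 and 0.5. Outside the quality weights, the share of all genes called is not given for these counts, so they have no background beside them.

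The labels give groups the same replicate numbers. Arrays with the same number in different groups did not deviate together (mean correlation -0.02, against 0.00 for other numbers), so the numbers were not taken to pair arrays. With the replicate block the genotype F test called 0 members, and Sgk1 in R192 against KO was -0.41 (adjusted p = 0.0260). The number of arrays per group, 3 to 6, limits what could be called.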
